A study of Mus musculus with 5 samples.

Results

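Long intergenic noncoding RNAs (lincRNAs) were read on a mouse expression array by 4460 of its 56605 non-control probes. They were taken by the array's own description, which starts with the word lincRNA, and not by any measured signal. The 4460 probes covered 4072 loci, a locus being 1 interval on 1 strand, within 3240 intervals on 20 chromosomes of the mm9 genome build. The interval had a median length of 7224.5 bases, with a range from 62 to 538251 bases. A locus had 1 probe in 3756 cases and 2 or more in 316, with 6 at the most. In 832 intervals both strands had probes, and 2231 probes read the forward strand against 2229 for the reverse strand. Only 10 of the probes carried a gene name, such as XIST, H19 or NEAT1, and the rest were named by coordinates.

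LincRNAs are transcripts that lie between protein-coding genes, are often spliced and polyadenylated like mRNAs, and carry no long reading frame. A few have well-known roles, such as Xist, which coats the inactive X chromosome of female cells, and Neat1, which builds nuclear paraspeckles. Others serve as hosts of microRNAs or are transcribed from enhancers, and most are low in abundance and restricted to few cell types. In the liver the sinusoidal endothelium is a specialised scavenger endothelium with open pores, and tumor vessels replace it as hepatomas grow.

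The study compared liver sinusoidal endothelial cells (LSEC) with tumor endothelial cells (TEC), and 1 Agilent 60-mer array with 1 colour (Cy3) was available for each of 5 conditions. LSEC came from mouse liver. TEC were the CD31+ cells drawn with magnetic beads from hepatomas grown in the liver after injection of HAK-1B, KYN-2 or Hepa1-6 cells, and the fifth array held Hepa1-6 cells grown in culture. The tumors of HAK-1B and KYN-2, both human hepatoma lines, are xenografts in mice, whereas Hepa1-6 is a mouse line. The labels gave C57BL/6 as the strain of LSEC and of all TEC, and C57L for the cultured cells. The methods described mice that were female, 6 weeks old and either C57BL/6 or BALB/c nude, and where they dealt with the arrays they named Huh-7 in place of HAK-1B. Whether an array held RNA of 1 mouse or of several was not given in the sources used here.

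With 1 array per condition no test applied, and no value below has a replicate error. All values are log2 of the background-subtracted spot signal, quantile normalized over the 5 arrays. A probe was called detected when the scanner software marked it well above background. A difference was called by size: the brighter array had to be well above background and at least 4-fold over the other. A dim array that was not well above background was set to the higher of its own signal and the lowest signal among probes well above background there. A fold against such an array is given as "at least". The TEC arrays shared 1 slide, while LSEC and cultured cells were each hybridized on another, and slide and condition cannot be told apart for the comparisons with LSEC or with cultured cells. All comparisons with LSEC used the same LSEC array. In bulk samples, fewer cells of a type and less RNA per cell cannot be told apart.

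The labelled cell types were checked against marker genes. All 10 endothelial markers (Pecam1, Cdh5 and others) were well above background on the LSEC and on each TEC array, against 3 of 10 in cultured cells, and all 8 LSEC markers (Stab2, Clec4g and others) against 1 of 8. Median log2 signals of the endothelial list were 13.94 in LSEC, 4.39 in cultured cells, and 11.74 and 12.81 in TEC from HAK-1B and KYN-2. Afp, the fetal albumin-like protein of hepatoma cells, was at 7.80, 15.92, 6.21 and 8.06 in the same order, and at 15.38 in Hepa1-6 TEC. The Hepa1-6 TEC array therefore read Afp almost as brightly as the cultured Hepa1-6 cells, and it is described apart. The whole list of 10 hepatoma and hepatocyte markers was mixed, with 6 well above background in cultured cells and all 10 in LSEC. Against LSEC, 3 of the 10 were called higher and 3 lower in cultured cells, and 5 higher and 1 lower in Hepa1-6 TEC. The sexes did not match the methods on every array. The Xist gene probe was well above background in cultured cells (8.68) and in Hepa1-6 TEC (7.07) but not in LSEC (2.35) or in TEC from HAK-1B (2.32) or KYN-2 tumors (2.31). Of 13 probes for the Y-linked genes Ddx3y, Eif2s3y, Kdm5d and Uty, 8, 8 and 7 were well above background on these last 3 arrays, 10 in Hepa1-6 TEC and 1 in cultured cells. The labels gave no sex.

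The probes on which the results below turn are shown first, each 60 bases long and as printed on the array, from 5′ to 3′. The 3 lincRNA loci near Mir155hg and the probe of that gene are shown because they differed between xenograft TEC and LSEC. Their probes lie at chr16:84708738-84708797 (forward), chr16:84705907-84705966 (reverse), chr16:84707486-84707545 (forward) and chr16:84715433-84715492 (forward).
chr16:84708695-84708806 forward: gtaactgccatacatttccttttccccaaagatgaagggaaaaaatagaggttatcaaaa
chr16:84702353-84710928 reverse: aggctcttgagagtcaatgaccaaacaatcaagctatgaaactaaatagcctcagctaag
chr16:84707202-84707748 forward: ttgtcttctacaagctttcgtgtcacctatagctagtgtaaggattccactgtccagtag
Mir155hg gene probe: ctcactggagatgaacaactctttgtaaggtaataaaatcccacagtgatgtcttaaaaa

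The probes named H19 and XIST in the lincRNA set are shown beside the array's separate probes for the same genes, since the pairs read different parts of 1 transcript. All of these lie on the reverse strand, at chr7:149762173-149762232 and chr7:149761492-149761551 for H19 and at chrX:100655839-100655898 and chrX:100662174-100662233 for Xist.
H19 lincRNA probe: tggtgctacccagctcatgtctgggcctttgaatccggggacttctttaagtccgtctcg
H19 gene probe: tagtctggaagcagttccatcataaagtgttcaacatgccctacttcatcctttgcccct
XIST lincRNA probe: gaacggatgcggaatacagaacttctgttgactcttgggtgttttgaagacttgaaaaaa
Xist gene probe: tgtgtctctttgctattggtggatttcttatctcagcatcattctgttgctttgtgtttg

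A pair of probes on opposite strands of 1 interval on chromosome 4 is shown because each strand differed in its own way between the arrays. They lie at chr4:132908756-132908815 (reverse) and chr4:132908803-132908862 (forward), and the capitals mark the 13 bases over which they are complementary.
chr4:132897264-132910714 reverse: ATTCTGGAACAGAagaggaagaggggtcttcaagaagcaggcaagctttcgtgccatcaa
chr4:132897264-132910714 forward: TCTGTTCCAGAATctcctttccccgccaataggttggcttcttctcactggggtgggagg

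The loci high in endothelial arrays and low in cultured Hepa1-6 cells are represented by 4 probes, at chr14:33998629-33998688 (reverse), chr9:56915005-56915064 (forward), chr8:80596463-80596522 (forward) and chr1:134881352-134881411 (reverse). The capitals mark the letters TGTTCCC, which 3 of them share.
chr14:33975934-33998694 reverse: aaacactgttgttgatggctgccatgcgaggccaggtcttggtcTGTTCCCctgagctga
chr9:56910620-56919495 forward: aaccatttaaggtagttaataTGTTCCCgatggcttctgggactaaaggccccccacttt
chr8:80581177-80621652 forward: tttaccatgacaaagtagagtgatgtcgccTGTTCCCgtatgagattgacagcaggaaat
chr1:134867906-134885481 reverse: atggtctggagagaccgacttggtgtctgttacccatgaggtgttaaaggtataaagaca

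The locus brightest in cultured Hepa1-6 cells among those dim on the endothelial arrays is shown with its neighbour, at chr13:98267374-98267433 and chr13:98270739-98270798, both forward.
chr13:98267049-98267604 forward: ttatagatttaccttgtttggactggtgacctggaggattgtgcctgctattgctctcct
chr13:98270713-98272269 forward: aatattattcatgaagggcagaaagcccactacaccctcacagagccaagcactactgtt

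For the brightest loci, the probe of the chromosome 7 locus has no position on the array's own list. It is shown with the probe of the ribosomal protein gene Rps29, to which the design gives the position chr2:172335003-172335062 on the reverse strand, and the capitals mark a run of 28 bases that both hold. The last probe, at chr14:78936616-78936675 on the forward strand, consists mostly of G and C.
chr7:108209996-108216032 reverse: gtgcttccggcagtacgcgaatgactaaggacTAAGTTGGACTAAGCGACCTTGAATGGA
Rps29 gene probe: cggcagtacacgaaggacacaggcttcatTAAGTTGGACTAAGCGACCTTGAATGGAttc
chr14:78924115-78938125 forward: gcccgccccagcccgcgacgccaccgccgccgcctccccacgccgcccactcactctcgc

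LincRNA probes were detected less often than the other probes on each of the 5 arrays, and those detected were dimmer. The LSEC array had 1850 lincRNA probes well above background, or 41.5%, against 55.2% of the 52145 other probes. The HAK-1B TEC array had 2059 (46.2%, others 58.5%), the KYN-2 TEC array 1863 (41.8%, others 55.8%) and the cultured cells 1388 (31.1%, others 45.8%). Hepa1-6 TEC stood apart, with 3340 lincRNA probes (74.9%) against 78.3% of the others. Among probes well above background, the median log2 signal on the LSEC array was 6.82 for lincRNA probes and 8.56 for the others. The same medians were 6.54 and 8.33 on the HAK-1B TEC array, 6.83 and 8.52 in KYN-2 TEC, and 7.76 and 9.27 in cultured cells. The lowest signal that counted as well above background differed between arrays as well. On the normalized log2 scale it was 4.68 in LSEC, 4.28 and 4.65 in TEC from HAK-1B and KYN-2 tumors, 5.96 in cultured cells and 2.85 in Hepa1-6 TEC. Shares of detected probes therefore compare arrays with unequal limits, and no order between arrays is drawn from them.

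**Figure D1:**
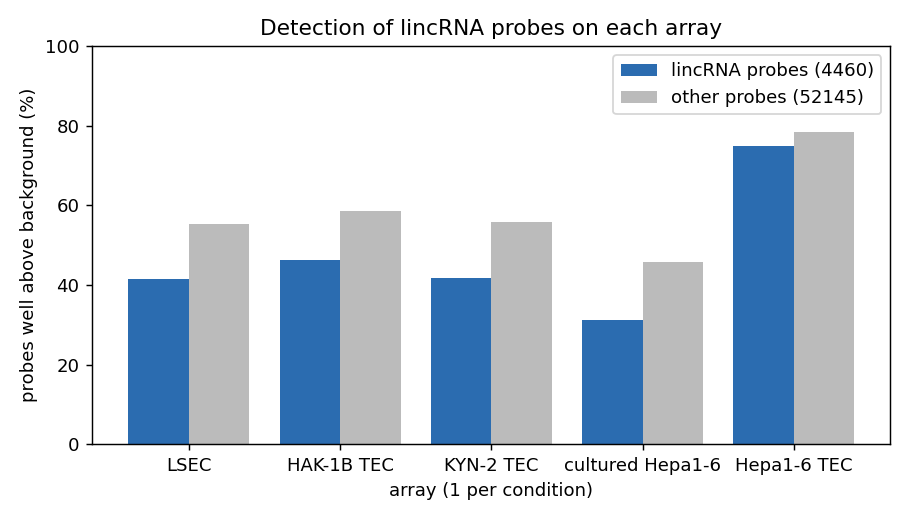
Share of probes well above background on each array, in percent, for the 4460 lincRNA probes (blue) and the 52145 other probes (grey), with 1 array per condition and no error bars. The blue bar is the shorter one on each array, from 31.1% in cultured Hepa1-6 cells to 74.9% in Hepa1-6 TEC.

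Taken over the 4 arrays without Hepa1-6 TEC, 2000 lincRNA probes (44.8%) were well above background on none, against 34.3% of the other probes. At the other end, 1117 (25%) were well above background on all 4, against 40.2% of the others. Between these lay 520 probes seen on 1 array (11.7%, against 8.64% of the others), 297 on 2 (6.66%, against 4.96%) and 526 on 3 (11.8%, against 11.9%). In the most common partial pattern only cultured cells, the array with the highest limit, lacked the signal. It held 464 probes, well above background in LSEC and in both xenograft TEC and not in cultured cells. Of these, 452 (97.4%) were also well above background in Hepa1-6 TEC, the endothelial array that the pattern left out. That array had the lowest limit, and it also detected 92.5% of the probes seen in both xenograft TEC alone and 76.6% of those seen in cultured cells alone. A further 154 probes were seen in cultured cells and on none of the 3 endothelial arrays, and 133 in both xenograft TEC and neither in LSEC nor in cultured cells. LSEC alone had 121 probes, HAK-1B TEC alone 173 and KYN-2 TEC alone 72. The shares of the other probes with each of these patterns were not counted.

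Detection also went with the base composition of the probe. Among the 1204 probes with the lowest G and C content (15.0% to 40.0%), 33.6% were well above background in LSEC, 25.2% in cultured cells, 36.6% in HAK-1B and 30.1% in KYN-2 TEC. Among the 1014 probes with the highest content (51.7% to 88.3%) these shares were 57.8%, 45.3%, 63.2% and 63.0%. The lincRNA probes had a median content of 45.0%, and the other probes, which were detected more often, 41.7%. Probes for the shortest intervals (62 to 1740 bases) were well above background less often than those for the longest (25800 bases and more), with 36.3% against 45.2% in LSEC. The 91 probes without a position on the array's list were seen in 30.8% of cases in LSEC and 19.8% in cultured cells.

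Where an interval had probes on both strands, signal on 1 strand alone was more common than signal on both on the 4 arrays other than Hepa1-6 TEC. In LSEC, 222 of the 832 intervals had both strands well above background and 360 had 1 strand. In cultured cells 145 had both, 331 had 1 and 356 neither. In Hepa1-6 TEC, the array with the lowest limit, 536 had both and 240 had 1. A strand under the limit counts as without signal, so these counts depend on the limit of each array. On the 4 arrays other than Hepa1-6 TEC, 31.1% to 46.2% of lincRNA probes were detected. At such shares 1 strand alone could be the more common for unrelated probes too, and no strand preference is drawn. A closer comparison was possible for 180 pairs of probes that share at least 25 complementary bases and so read the same stretch of DNA from opposite strands. In LSEC both probes of a pair were detected in 34 cases, 1 in 67 and neither in 79. In cultured cells both were detected in 18 cases, 1 in 58 and neither in 104, and in Hepa1-6 TEC these counts were 111, 51 and 18.

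Probes that read the same locus on the same strand did not always agree. The 487 such pairs had both members well above background in 119 cases in LSEC, where the median difference between the members was 1.12 on the log2 scale. For the log2 ratio of HAK-1B TEC to LSEC, the median difference between members was 0.36 over the pairs measured on both arrays. It was 0.45 over 103 pairs for KYN-2 TEC against LSEC and 0.45 over 72 pairs for cultured cells against LSEC. Where at least 1 member was past 2-fold, both members had the same sign in 17 of 23, 24 of 35 and 23 of 32 pairs. For KYN-2 TEC against HAK-1B TEC this was so in 13 of 24 pairs, and for Hepa1-6 TEC against LSEC in 50 of 66. These differences cover the choice of probe and not the spread between animals.

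The probes that carried a gene name cover well-known lincRNAs. NEAT1, the scaffold of paraspeckles, was bright on all arrays, from 11.76 in cultured cells and 12.57 in KYN-2 TEC through 12.81 in Hepa1-6 TEC and 13.11 in HAK-1B TEC to 13.44 in LSEC. TUG1, a lincRNA first described in the retina, had the most even signal of the detected ones, between 9.34 and 9.69 on the 5 arrays. The 2 Neat1 gene probes were brightest in HAK-1B TEC instead, at 9.60 and 10.51. The probe named KCNQ1ot1, after the antisense transcript that silences an imprinted domain, was at 9.10 in LSEC, 9.12 and 8.91 in the xenograft TEC and 10.51 in cultured cells. The design puts it on the forward strand and the 5 Kcnq1ot1 gene probes on the reverse strand, so it may not read that transcript. Of these gene probes, the brightest went the other way, from 13.26 in LSEC to 11.58 in cultured cells. None of the 3 lincRNA probes differed by 4-fold between any arrays.

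Other named probes were off on most arrays. XIST was the widest in range, with 3.05 in LSEC and 2.96 in KYN-2 TEC, neither well above background, 5.47 in HAK-1B TEC, 12.73 in cultured cells and 12.56 in Hepa1-6 TEC. The separate Xist gene probe, printed above, was well above background in cultured cells and Hepa1-6 TEC as well, and not in HAK-1B TEC. TSIX, the antisense partner of Xist, was well above background in Hepa1-6 TEC alone, at 6.50, whereas the Tsix gene probe was so in LSEC alone (4.83) and not in Hepa1-6 TEC (2.41). lincP21, a p53 target, was well above background in cultured cells alone, at 7.22. NRON, which holds the transcription factor NFAT in the cytoplasm, counted as well above background on the TEC arrays alone, at 5.27 (HAK-1B), 5.46 (KYN-2) and 2.97 (Hepa1-6). Its signals of 5.0 in LSEC and 5.47 in cultured cells did not count under the limits of those arrays, and the Nron gene probe was on none of the arrays well above background. PINC was well above background in Hepa1-6 TEC at 3.26, a signal lower than the 4.08 that did not count as such in LSEC. HOTAIR, transcribed from the HoxC cluster, was on none of the arrays well above background, with values from 2.65 to 2.97.

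H19, the imprinted fetal transcript of the H19-Igf2 domain, separated the xenograft TEC. The lincRNA probe was not well above background in LSEC (2.76) or in cultured cells (2.88), and on the TEC arrays it was at 3.58 (Hepa1-6), 5.01 (HAK-1B) and 10.37 (KYN-2). KYN-2 TEC exceeded HAK-1B TEC by 5.36 on the log2 scale, the largest difference between these arrays among lincRNA loci well above background on both. The separate H19 gene probe read 5.23 in LSEC, 8.37 in HAK-1B TEC, 8.73 in Hepa1-6 TEC, 9.71 in KYN-2 TEC and, not well above background, 4.87 in cultured cells. Both probes ranked KYN-2 TEC first, but the gene probe put the gap to HAK-1B TEC at a smaller size and was well above background in LSEC. Of 10 hepatoma and hepatocyte markers, a list that includes H19, 4 were called higher in KYN-2 than in HAK-1B TEC and none lower. Of 5 fibroblast and stellate markers tested, 1 was higher and none lower. The paper calls some cancer cells among the isolated cells inevitable. The part of other cell types in the H19 signals was not tested.

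**Figure D2:**
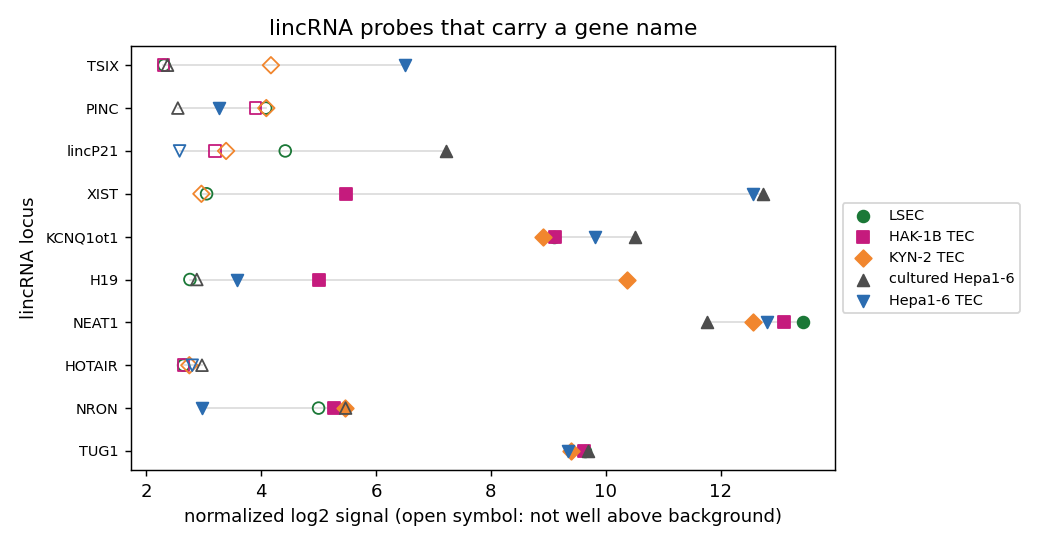
Normalized log2 signal of the 10 lincRNA probes that carry a gene name, with 1 symbol per array and open symbols where the probe was not well above background. TUG1 lies between 9.34 and 9.69 on all arrays, whereas XIST runs from 2.96 to 12.73 and H19 from 2.76 to 10.37.

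Among lincRNA probes, calls were fewer than among all probes in 4 of the 5 comparisons. Detected lincRNA probes were dimmer than the others and so had less room above the limit set for a dim array. The part of this in the lower shares was not tested. HAK-1B TEC differed from LSEC at 144 of 2222 lincRNA probes tested, or 6.48%, against 9.52% of all probes. The calls were 48 higher (2.16%, against 4.17% of all probes) and 96 lower (4.32%, against 5.35%). KYN-2 TEC differed from LSEC at 137 of 2110 probes, or 6.49% against 8.03% of all, with 68 higher (3.22%, against 4.43%) and 69 lower (3.27%, against 3.6%). Cultured cells differed from LSEC at 371 of 2082 probes, or 17.8% against 24.8%, with 246 higher (11.8%, against 14.2%) and 125 lower (6.0%, against 10.6%). The xenograft TEC differed from each other at 44 of 2165 probes, or 2.03% against 2.79%, with 34 higher in KYN-2 TEC (1.57%, against 1.75%) and 10 higher in HAK-1B TEC (0.462%, against 1.04%). Hepa1-6 TEC differed from LSEC at 541 of 3417 probes, or 15.8% against 15.0% of all, with 170 higher (4.98%, against 6.2%) and 371 lower (10.9%, against 8.83%).

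The split between higher and lower depended on the processing in 3 comparisons. For Hepa1-6 TEC against LSEC, 31.4% of calls were higher. Scaled to the 75th percentile of each array in place of quantile normalization, 279 were higher and 105 lower, so that 72.7% were higher. Where a probe had to be well above background on both arrays, 44 of 343 were higher (12.8%). For cultured cells against LSEC, 66.3% of calls were higher, and the share was 50.6% after normexp background correction and 47.2% where dim signals were used as measured. For KYN-2 TEC against HAK-1B TEC it was 77.3%, and 92% after normexp. The share was 60.6% where dim signals were used as measured and 53.4% by the methods' rule of ratio and Z-score. No direction over the whole lincRNA set is therefore given for these comparisons.

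**Figure D3:**
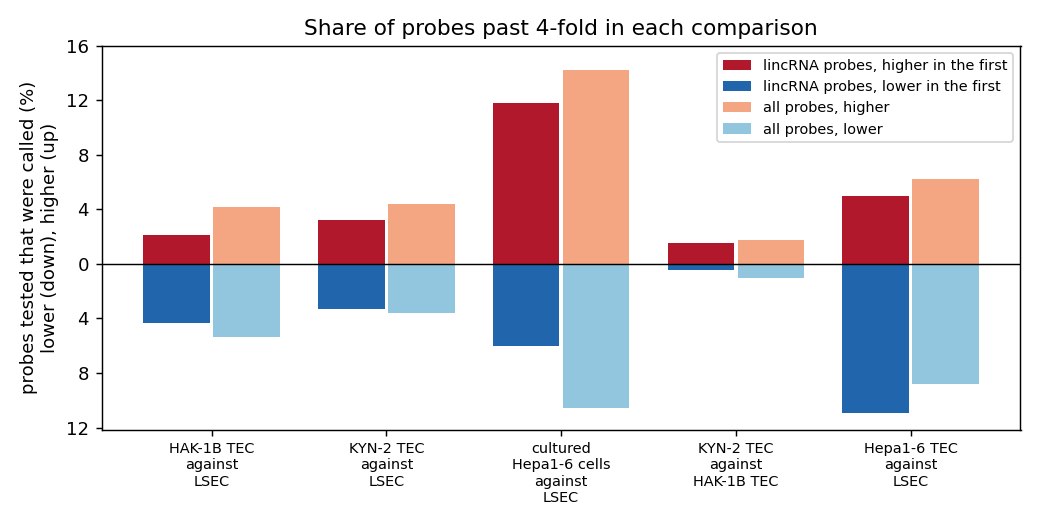
Share of probes tested that differed by at least 4-fold, in percent, above the line for higher and below it for lower in the first sample named, for lincRNA probes (dark) and all probes (light). The dark bars are shorter than the light ones, except for the lower calls of Hepa1-6 TEC against LSEC, with 10.9% of lincRNA and 8.83% of all probes.

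Few lincRNA loci were higher in both xenograft TEC than in LSEC. The 17 probes, at 17 loci, made up 0.737% of the 2306 tested, against 1.82% of all probes. Of these, 14 were well above background on all 3 arrays, and in 3 LSEC was not well above background. Median log2 signals over the 17 probes were 6.00 in LSEC, 7.10 in cultured cells, 9.14 in HAK-1B and 9.03 in KYN-2 TEC. On the Hepa1-6 TEC array, which had no part in the choice, the median was 7.48, and 5 of the 17 were at least 4-fold higher than in LSEC. LSEC was the dim side of the choice, so this count was partly set by it. Of the 17, 3 lie near Mir155hg on chromosome 16 and 3 lie between 14943275 and 15170100 on chromosome 5.

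The Mir155hg region held the largest difference of this kind. Mir155hg is the host transcript of miR-155, a microRNA known from activated lymphocytes and macrophages. The locus chr16:84708695-84708806 on the forward strand, 6627 bases from the Mir155hg probe, read 6.00 in LSEC, 9.95 in HAK-1B and 10.20 in KYN-2 TEC, 6.83 in cultured cells and 7.33 in Hepa1-6 TEC. It was 15.5-fold higher in HAK-1B TEC and 18.4-fold higher in KYN-2 TEC than in LSEC. The locus chr16:84702353-84710928 on the reverse strand read 5.95 in LSEC, 9.15 and 9.80 in the xenograft TEC, 6.20 in cultured cells and 5.45 in Hepa1-6 TEC. Its folds over LSEC were 9.14 and 14.3. The third locus, chr16:84707202-84707748 on the forward strand, was well above background in HAK-1B TEC (7.24) and KYN-2 TEC (7.41) alone, against 2.21 in LSEC, 3.27 in cultured cells and 2.81 in Hepa1-6 TEC, and was at least 5.90-fold higher than in LSEC. The gene probe of Mir155hg was also highest in the xenograft TEC, with 5.37 and 5.93 there and no signal well above background in LSEC (2.31), cultured cells (2.45) or Hepa1-6 TEC (2.85). Both strands of the region and the host gene were thus higher on the same pair of arrays.

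Markers of other cells differed between these arrays as well. The 8 leukocyte markers were all well above background on the 3 endothelial arrays, with medians of 11.16 in LSEC, 13.98 in HAK-1B and 10.73 in KYN-2 TEC. Only the neutrophil genes S100a8 (7.82, 14.86 and 9.44) and S100a9 (9.46, 16.46 and 10.61) were called higher in HAK-1B TEC than in LSEC, none in KYN-2 TEC, and the median difference of the list from LSEC was 0.14 and −0.50. The 6 fibroblast and stellate markers had medians of 5.97, 9.46 and 11.13, and Col1a1 was at 4.72, 9.46 and 11.53. Of 5 fibroblast and stellate markers tested, 3 were called higher in HAK-1B and 4 in KYN-2 TEC. Their part in the loci that were higher in xenograft TEC was not tested.

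The other loci of the group were on chromosomes 4, 5, 9, 15, 17, 18 and 19. On chromosome 5, chr5:15146475-15170100, with Speer4c as the nearest gene, read 6.58 in LSEC, 10.15 in HAK-1B and 9.14 in KYN-2 TEC. The locus chr5:14943275-14944205, with Gm10354 as the nearest gene, read 6.46, 10.25 and 8.94. Between them, chr5:15033568-15033987 was not well above background in LSEC (4.29) and read 8.33 and 7.09 in the xenograft TEC, at least 5.34-fold higher. These 3 loci, all forward, were higher in HAK-1B TEC than in KYN-2 TEC, and the 2 Mir155hg loci named first were not. The locus chr17:71183978-71185384, forward, lies 8245 bases from the probe of Tgif1, a homeobox repressor of TGF-beta signalling. It was not well above background in LSEC (5.0), read 8.67 in HAK-1B and 7.72 in KYN-2 TEC, and was at least 6.55-fold higher. Tgif1 itself was at 12.77 in LSEC, 14.94 in HAK-1B and 14.29 in KYN-2 TEC, in the same direction.

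Some of the 17 had bright probes throughout. The locus chr17:48068261-48087905 read 13.07 in LSEC, 15.23 in HAK-1B and 16.07 in KYN-2 TEC, and chr17:29374758-29387733 read 11.14, 13.41 and 13.14. The locus chr5:139230332-139230823 read 8.88, 11.04 and 11.31, and lies 11778 bases from the probe of Fam20c, a kinase of secreted proteins, which read 2.82, 9.53 and 9.83. The gene nearest to a locus was itself higher by the same rule in 2 of 14 cases within 100000 bases (14.3%), against 1.46% of the genes near lincRNA probes that were tested and not called. Whatever the size, 11 of the 14 genes had a difference of the same sign, against 620 of 1302. At chr9:88575075-88611650 on the reverse strand another probe of the locus shares 50 bases with the probe of the folate enzyme gene Mthfs, so its signal may belong to either transcript.

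More loci were lower in both xenograft TEC than in LSEC. They numbered 59 probes at 58 loci, or 2.56% of the 2306 tested, against 2.63% of all probes. In 47 the signal was well above background on all 3 arrays, and in 10 it was not so in either xenograft TEC. Median log2 signals over the 59 were 9.46 in LSEC, 5.04 in cultured cells, 6.07 in HAK-1B and 5.94 in KYN-2 TEC. On the Hepa1-6 TEC array, not used in the choice, the median was 6.12, and 51 of the 59 were at least 4-fold lower than in LSEC. The LSEC array is the bright side of both comparisons, so a single array carries the high value of each of these loci.

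Ranked by the smaller of the folds, the first loci were on chromosome 1. The locus chr1:85117750-85129200 on the reverse strand read 9.63 in LSEC, 5.20 in HAK-1B and 5.37 in KYN-2 TEC, 2.25 in cultured cells (not well above background) and 4.03 in Hepa1-6 TEC, and the smaller of its folds was 19.1. A neighbour, chr1:85304494-85305390 on the same strand, had 2 probes. They read 11.48 and 10.88 in LSEC, while HAK-1B TEC gave 7.56 and 7.76, KYN-2 TEC 7.30 and 7.51, and Hepa1-6 TEC 6.40 and 6.15. The smaller fold of the first was 15.2. Both probes placed LSEC well above each TEC array. The interval chr1:85300475-85331475 around it read 7.94, 4.96 and 5.04 in LSEC and the xenograft TEC, and chr1:85036677-85038530 read 11.43, 8.69 and 8.67, all on the reverse strand.

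Several loci of this group lie near genes of known function. The locus chr16:23992037-24001037 on the forward strand is 24198 bases from the probe of Bcl6, a transcriptional repressor of germinal centre B cells. The locus read 10.52 in LSEC, 6.15 in HAK-1B and 6.60 in KYN-2 TEC, and the smaller of its folds was 15.1. Bcl6 did not follow, with 8.46, 9.42 and 7.63. The locus chr18:69923410-69965360, 76277 bases from the probe of the E-protein gene Tcf4, read 10.17, 6.35 and 4.81, a 40.9-fold difference for KYN-2 TEC, against 7.75, 6.71 and 6.84 for Tcf4. The long interval chr3:34003359-34537330 read 9.93, 6.05 and 5.80. Next to Tmcc2, chr1:134245856-134246607 read 7.44 in LSEC and was not well above background in HAK-1B TEC (3.12) or KYN-2 TEC (4.43), at least 6.91-fold lower. Tmcc2 read 9.15, 6.02 and 7.0 and so was lower as well. At chr15:90156889-90184564 the signal was 7.77 in LSEC and not well above background in HAK-1B TEC (3.46) or KYN-2 TEC (4.22), at least 8.69-fold lower. At chr12:5303823-5379098 it was 7.0, 4.36 and 3.79, at least 5.11-fold lower.

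Some neighbouring loci went together. Of the 59 probes, 15 (25.4%) lay in 6 groups within 100000 bases of each other, and 68 of 2247 probes tested and not called (3.03%) lay as near to a called one. On chromosome 3, 3 loci at chr3:146515333-146649125, beside the tubulin ligase gene Ttll7, read 10.36, 11.11 and 10.22 in LSEC and 7.19, 7.75 and 6.98 in HAK-1B TEC. On chromosome 8, 3 probes at chr8:26343277-26352902, near Tacc1, included both strands of 1 interval, which read 10.06 and 8.98 in LSEC and 7.52 and 6.30 in HAK-1B TEC. The nearest gene was lower by the same rule for 5 of 48 genes within 100000 bases (10.4%), against 1.78% of genes near lincRNA probes not called. Most neighbours were thus not lower by the rule. Whatever the size, 27 of the 48 genes had a difference of the same sign, against 671 of 1290, so the signs were split in much the same way. Cnksr3, 3939 bases from chr10:3231337-3231802, read 13.12 in LSEC, 9.24 in HAK-1B and 10.09 in KYN-2 TEC, and the locus read 10.53, 8.33 and 8.28. Markers of several cell types were lower on these arrays too. Of the 10 endothelial markers, 7 were called lower in HAK-1B and 3 in KYN-2 TEC than in LSEC, and of the 8 LSEC markers 5 and 6. Of the 10 hepatoma and hepatocyte markers 4 and 3 were lower and 1 and 2 higher. Alb, the albumin gene of hepatocytes, was at 12.97 in LSEC and at 6.51 and 8.85 in the xenograft TEC. The part of these cell types in the loci that were lower was not tested.

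**Figure D4:**
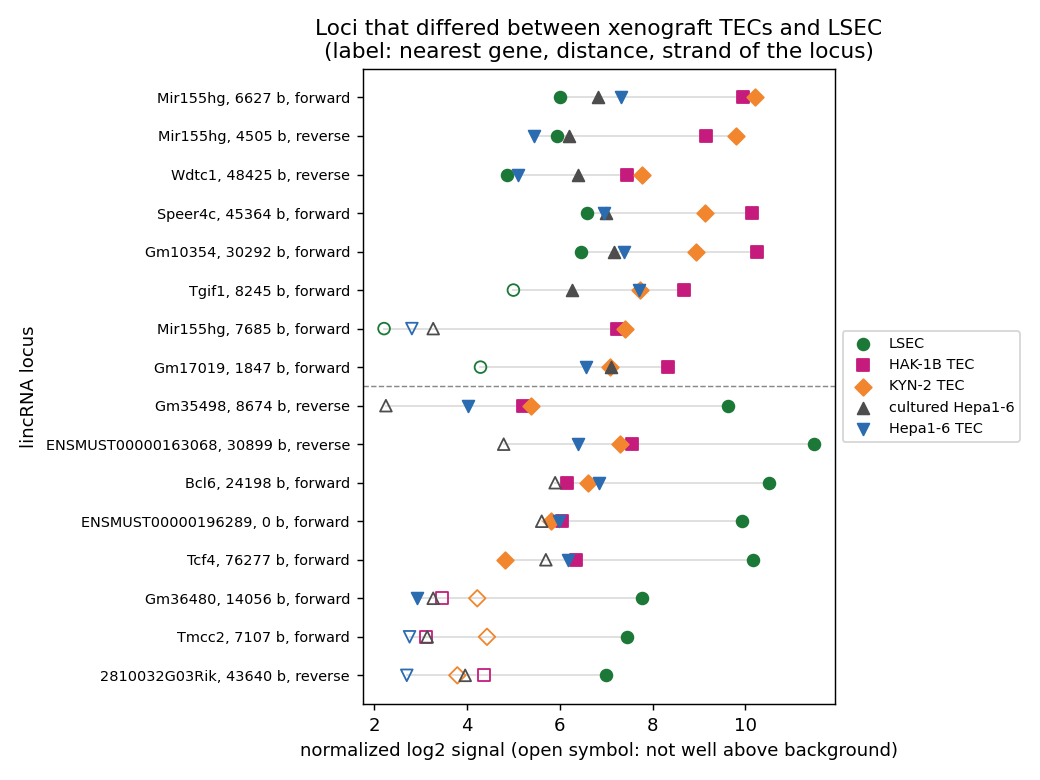
Normalized log2 signal of the lincRNA loci that were higher (above the dashed line) or lower (below it) in both xenograft TEC than in LSEC, 8 loci each, labelled by the nearest gene, the distance to its probe in bases (b) and the strand. Symbols are arrays, open where not well above background. The Hepa1-6 TEC array, which was not used to choose them, lies nearer to the xenograft TEC than to LSEC for the lower loci, and below the xenograft TEC for the higher ones. The LSEC and xenograft TEC arrays were used to choose them, so its place among these was partly set by the choice.

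Loci that were higher on all 3 endothelial arrays than in cultured Hepa1-6 cells numbered 37 probes at 33 loci, or 1.5% of the 2460 tested, against 5.15% of all probes. Of these, 24 were well above background on all 4 arrays, and in 13 cultured cells were not. Medians over the 37 were 11.23 in LSEC, 10.87 and 10.30 in the xenograft TEC and 6.39 in cultured cells. On the Hepa1-6 TEC array the median over them was 10.06, all 37 were well above background and 25 were at least 4-fold higher than in cultured cells. Cultured cells were the dim side of the choice, so the last count was partly set by it.

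The largest differences exceeded 50-fold. The locus chr14:33975934-33998694, reverse, read 11.83 in LSEC, 13.75 in HAK-1B and 11.89 in KYN-2 TEC, 6.08 in cultured cells and 11.90 in Hepa1-6 TEC, and its smallest fold over cultured cells was 53.8. At chr18:35967933-35986564, forward, 1 of 3 probes read 14.63, 16.11, 14.38, 8.66 and 14.30 in the same order, with a smallest fold of 52.7. That probe has no position on the array's list, and the other 2 probes of the locus were not called, with 5.47, 6.21, 5.23, 5.59 and 4.73, and 6.59, 6.51, 5.98, 5.07 and 4.81. The locus chr9:56910620-56919495, forward, 149 bases from the probe of the phosphatase gene Ptpn9, read 13.09, 14.45, 12.59, 6.89 and 12.61, with a smallest fold of 51.9. Ptpn9 itself was as bright in cultured cells (11.39) as in LSEC (11.45). The locus chr8:80581177-80621652, forward, was not well above background in cultured cells (5.84) and read 12.24, 13.31, 11.52 and 11.33 on the endothelial arrays, at least 47.2-fold higher. The locus chr1:134867906-134885481, reverse, 945 bases from the probe of Mdm4, an inhibitor of p53, read 12.98, 13.81, 12.22, 7.02 and 12.05, with a smallest fold of 36.7. HAK-1B TEC was the brightest and cultured cells the dimmest array for each of the 5 probes called.

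The profiles of these loci over the 5 arrays were close to each other and to certain gene probes. As a description added after the values were seen, each profile was centred on its mean and compared by the root mean square difference. The called probes of the chromosome 18 and chromosome 9 loci differed by 0.09 on the log2 scale, and both were close to the probe of the predicted gene Gm8884 (0.06 and 0.13), which read 12.78, 14.25, 12.54, 6.96 and 12.43. The chromosome 14 locus was 0.13 from Tmem178, and the Mdm4 locus 0.14 from H2-Eb1, a class II histocompatibility gene that read 16.93, 17.76, 16.17, 11.02 and 16.36. The comparison ran over 5 arrays that share the normalization, and cultured cells set most of the range. The loci were chosen by the same rule from these values, so a likeness between them was partly set by the choice. The gene probes named were among the nearest ranked, and how near a best match would lie for other probes was not tested. No run longer than 13 bases was shared between such probes. The letters TGTTCCC, noticed in the sequences printed above, stood in 4 of the 37 probes (10.8%), against 32 of all 4460 lincRNA probes (0.717%) and 244 of 52145 others (0.468%). The complementary letters GGGAACA stood in none of the 37, in 23 lincRNA probes (0.516%) and in 215 others (0.412%). Since the letters were chosen for these probes, the shares are a description only.

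A cluster beside the interferon-inducible gene Ifi204 gave the most probes from 1 place. In chr1:175654606-175717250, 7 probes of 3 intervals on the reverse strand were called. The locus chr1:175660642-175671878 read 13.15 in LSEC, 11.81 in HAK-1B and 11.79 in KYN-2 TEC, 6.39 in cultured cells and 12.01 in Hepa1-6 TEC, with a smallest fold of 42.1 over cultured cells. Another locus there, chr1:175705225-175717250, had a probe that read 15.06, 13.92, 13.92, 9.64 and 13.61. Ifi204 read 11.57, 11.58 and 11.54 on the endothelial arrays and 8.51 in cultured cells. LSEC was the brightest array for 6 of the 7 probes, unlike the loci with HAK-1B TEC at the top, and the other probe read between 9.13 and 9.28 on the endothelial arrays. By the same measure of profile, the gene probes nearest to the locus were those of Rtp4 (0.33), Oasl2 (0.35), Grap (0.35), Isg15 (0.36) and C1qtnf1 (0.40).

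Further loci were dim in cultured cells. The locus chr10:93774693-93893616, forward, read 10.78 in LSEC, 8.28 in Hepa1-6 TEC, 9.16 in KYN-2 TEC and a value between those of LSEC and KYN-2 TEC in HAK-1B TEC, against 2.22 in cultured cells, at least 9.20-fold. The overlapping chr10:93819821-93976621 read 10.02, 10.09, 8.55 and 7.48 against 2.32. The locus chr2:22782700-22801900, which holds the probe of the actin regulator gene Abi1, read 8.69, 9.58, 9.16 and 8.11 against 5.19, at least 6.64-fold. On chromosome 14, 3 loci on the reverse strand within chr14:62254361-62301165 were called as well. The nearest gene was higher by the same rule for 5 of 29 genes within 100000 bases (17.2%), against 3.15% near probes not called. Whatever the size, 15 of the 29 genes had a difference of the same sign, against 602 of 1365. The endothelial arrays also read leukocyte markers, all 8 of them, whereas cultured cells read 4 of 8 (medians 11.16 in LSEC and 7.12 in cultured cells), so these loci were higher together with endothelial and with leukocyte genes. The part of either in the result was not tested.

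Cultured Hepa1-6 cells had the largest group. There 186 probes at 181 loci were higher than on all 3 endothelial arrays, or 7.56% of 2460, against 7.86% of all probes. Only 51 were well above background on all 4 arrays, and for 93 no endothelial array was. Medians were 4.03 in LSEC, 4.16 and 4.18 in the xenograft TEC and 8.06 in cultured cells. In Hepa1-6 TEC, the endothelial array with the Afp signal, 163 of the 186 were detected, and the median over all 186 was 5.58. There 37 were at least 4-fold higher than in LSEC and 129 at least 4-fold lower than in cultured cells. LSEC and cultured cells were both used to choose the probes, so both counts were partly set by the choice.

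Among those dim on the endothelial arrays, the brightest was on chromosome 13. The locus chr13:98267049-98267604 read 12.40 in cultured cells and 11.58 in Hepa1-6 TEC and was not well above background in LSEC (3.50) or in either xenograft TEC (3.25 and 2.23), at least 211-fold lower. Its neighbour chr13:98270713-98272269 read 10.68 and 7.52 against 2.31, 2.27 and 3.25, at least 64.3-fold lower. Gm2379, the nearest gene on the array, read 10.50 in cultured cells and 8.48 in Hepa1-6 TEC, and 2.33, 4.48 and 2.40 on the other arrays. In all, 5 probes of 5 intervals between 98221098 and 98603323 on chromosome 13 were called. At chr12:52950465-52950990 cultured cells read 11.19 and Hepa1-6 TEC 6.76, against 3.82, 2.29 and 3.40, at least 91.3-fold. The same arrays were thus bright for each of these loci, with Hepa1-6 TEC lower by amounts that differed from locus to locus.

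Of the loci measured on all arrays, chr1:63264155-63345773 showed the largest difference, with 10.86 in cultured cells against 5.19 in LSEC, 4.84 in KYN-2 TEC, 5.35 in HAK-1B TEC and 6.14 in Hepa1-6 TEC, a smallest fold of 45.7. At chrX:102222494-102267068, 1 of 2 probes read 13.17 in cultured cells against 7.94, 7.65 and 8.32, a smallest fold of 28.8, and 10.44 in Hepa1-6 TEC. The other probe was not called, with 4.63 in cultured cells. The locus chr5:35893909-35899497 read 11.16 against 6.72, 6.35 and 6.88, a smallest fold of 19.4. At chr9:96635508-96654148, which holds the probe of the zinc finger gene Zbtb38, cultured cells read 9.72 against 5.79, 5.71 and 5.58, a smallest fold of 15.2, and Zbtb38 read 9.20 against 2.31, 3.40 and 2.33. The locus chr16:3337275-3355950 read 11.35 against 6.47, 7.69 and 6.83 and was the brightest in Hepa1-6 TEC, at 12.12. Its probe shares 48 bases with that of another lincRNA, chr16:3111550-3130500, so these loci cannot be read apart.

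The group held 48 probes (25.8%) in 20 clusters, and 11.6% of the probes not called lay within 100000 bases of a called one. One of them, chr15:61919018-62102500, with 6 probes of 3 intervals, covers Pvt1, a lincRNA gene beside Myc that also hosts microRNAs. The Pvt1 gene probe read 9.0 in LSEC, 9.22 in HAK-1B and 9.42 in KYN-2 TEC, 11.68 in cultured cells and 10.68 in Hepa1-6 TEC. The lincRNA probe on the forward strand of chr15:61984389-62102500 read 6.57, 7.23, 7.70, 10.05 and 8.92, and the reverse strand of this interval read 5.79, 4.90, 5.57, 7.89 and 6.14. The forward probe shares 28 bases with another Pvt1 probe and may read the same transcript. The nearest gene was higher by the same rule for 28 of 158 genes within 100000 bases (17.7%), against 5.98% near probes not called. Whatever the size, 98 of the 158 genes had a difference of the same sign, against 725 of 1305.

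**Figure D5:**
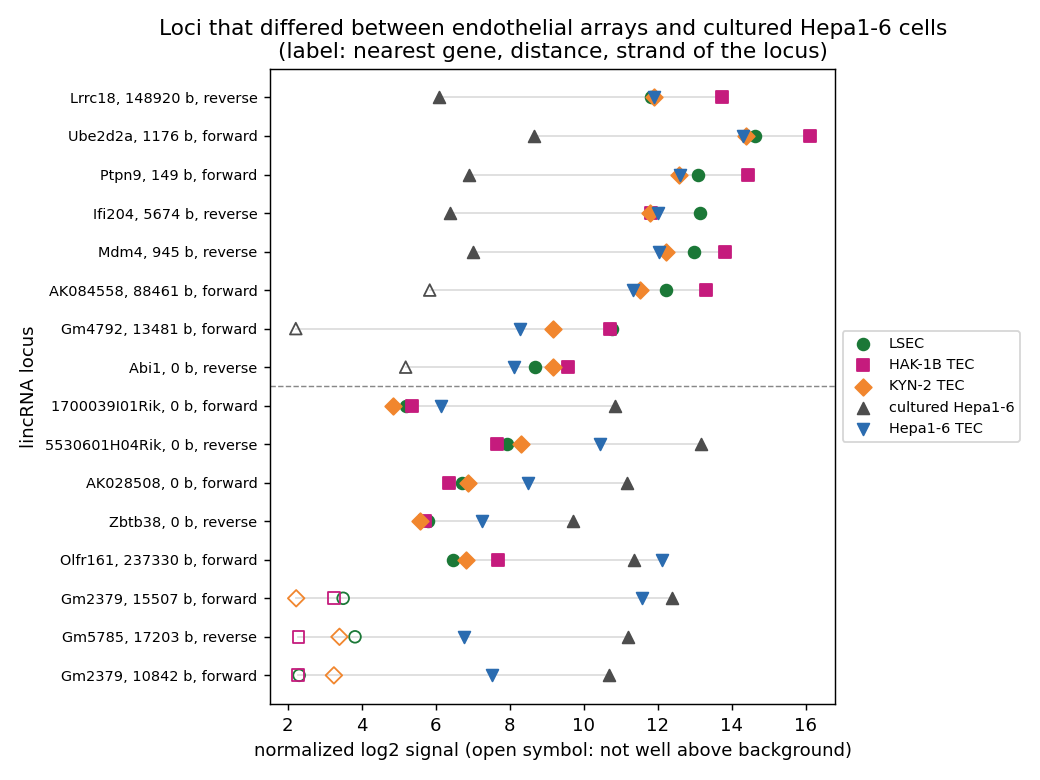
Normalized log2 signal of the lincRNA loci that were higher (above the dashed line) or lower (below it) on the arrays of LSEC and both xenograft TEC than in cultured Hepa1-6 cells, 8 loci each, with symbols and labels as for the xenograft plot. Hepa1-6 TEC lies with the other endothelial arrays above the line, and between them and cultured cells below it, with the locus near Olfr161 as the exception at 12.12. The other arrays were used to choose the loci, so the place of Hepa1-6 TEC among them was partly set by the choice.

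The strands of 1 interval could fall in different groups. Of 9 intervals with both strands called in any group, 6 had the strands in different ones. At chr4:132897264-132910714 the reverse strand was among the loci higher in xenograft TEC, with 4.86 in LSEC, 6.39 in cultured cells, 7.46 in HAK-1B and 7.77 in KYN-2 TEC. The forward strand was among those higher in cultured cells, at 7.60 there against 4.82, 4.55 and 5.28. The reverse probe printed above is the other one of that locus, and it read 3.15 in LSEC, not well above background, 6.00 and 6.61 in the xenograft TEC and 5.29 in cultured cells. At chr16:23992037-24001037, near Bcl6, the forward strand was lower in xenograft TEC and the reverse strand higher in cultured cells. At chr3:36280098-36347798, beside the annexin gene Anxa5, the forward strand was lower in xenograft TEC (10.21 in LSEC, 7.81 and 7.16) and the reverse strand lower in cultured cells (6.22, against 9.99 in LSEC). The others were chr11:112898724-113062945, chr18:3003075-3016150 and chr8:48476637-48492537.

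The xenograft TEC differed from each other at few loci. Besides H19, chr14:20893694-20903726 read 9.20 in HAK-1B and 12.92 in KYN-2 TEC, against 9.26 in LSEC and 9.40 in cultured cells. The locus chr15:38630866-38640611 read 7.35 and 10.79, against 7.67 and 6.66. Each of these was highest in KYN-2 TEC and near LSEC in HAK-1B TEC, and their probes held 78.3% and 65.0% G and C. In the other direction, chr8:82836971-82849309 read 9.91 in HAK-1B and 5.89 in KYN-2 TEC, against 4.98 in LSEC. The locus chr4:128727332-128735227 read 14.23 and 11.29, against 11.15, and chr16:93121505-93142255 read 9.07 and 6.61, against 5.02.

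The brightest lincRNA loci on the endothelial arrays were bright on every array. The locus chr14:78924115-78938125 read 16.74 in LSEC, 16.50 in HAK-1B and 17.39 in KYN-2 TEC, 15.68 in cultured cells and 16.08 in Hepa1-6 TEC. Its probe holds 83.3% G and C, near the upper end of the lincRNA set. The chr7:108209996-108216032 probe, which shares 28 bases with that of Rps29, read 16.94, 17.04, 16.47, 15.89 and 16.66, and Rps29 read 17.37, 17.37, 16.98, 16.60 and 17.12. The chr11:22681800-22707775 locus read between 16.70 and 17.09 and shares a run of 26 bases with the lincRNA locus chr2:167085700-167117795. The chr17:17481706-17482457 locus read between 16.40 and 16.84. In all, 20 lincRNA probes shared at least 25 bases on the same strand with a gene probe and 105 with another lincRNA probe, so their signals cannot be given to 1 transcript.

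Hepa1-6 TEC added 1068 probes that were well above background on none of the 4 other arrays, or 53.4% of the 2000 such lincRNA probes, against 46.2% of the other probes. Most were dim. Their median was 3.76, with quartiles of 3.11 and 4.91, and 683 lay under 4.28, the lowest signal that counted as well above background on any of the other arrays. Above 5.96, the highest of those limits, lay 133, and 17 were at least 4-fold over all 4 other arrays, of which 3 had a spot marked non-uniform or an outlier. The 2 brightest, a probe of chr18:47690173-47697423 at 15.58 and that of chr1:59775022-59780348 at 11.30, were among these 3. The other probe of the chromosome 18 locus was not well above background on any array, Hepa1-6 TEC (2.76) included. Next, without such a mark, came chr4:141527564-141547339 at 9.33 and chr9:43738583-43757007 at 9.14, at least 10.3-fold and 9.03-fold higher than on each other array. How many of the probes outside the lincRNA set passed the same 4-fold limit was not counted.

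Long noncoding RNA genes with probes outside the lincRNA set were counted as a list. Of 57 listed genes 41 had a probe, and 27 were well above background in LSEC, 29 and 31 in the xenograft TEC, 21 in cultured cells and 37 in Hepa1-6 TEC. HAK-1B TEC had 1 of 30 tested higher and 1 lower than LSEC, with a median log2 difference of 0.07, and KYN-2 TEC had 1 of 33 higher and 2 lower, with a median of 0.02. Cultured cells had 5 of 28 higher and 5 lower. Over all probes, 4.17% were higher and 5.35% lower in HAK-1B TEC, and 4.43% and 3.6% in KYN-2 TEC. In cultured cells these shares were 14.2% and 10.6%. With so few genes tested, no difference between the list and all probes is drawn. Dnm3os, the host of miR-199a and miR-214, read 8.45 in LSEC, 4.60 in HAK-1B and 3.59 in KYN-2 TEC (the latter not well above background), 2.29 in cultured cells and 2.70 in Hepa1-6 TEC. Snhg14 was well above background in LSEC alone (5.54). Ptprv, which was counted in the list although it is a protein-coding gene in the mouse, was not well above background in LSEC (2.91). It was so in both xenograft TEC (4.90 and 5.04) and in Hepa1-6 TEC (5.64). Measured on all 3 arrays, H19 had a mean log2 difference of 3.81 between xenograft TEC and LSEC, Peg13 of −1.60, and Dleu2 and Bvht of −1.56 each. Peg13, an imprinted noncoding RNA, was bright on the endothelial arrays (13.46 in LSEC, 12.04 in HAK-1B and 11.67 in KYN-2 TEC) and not well above background in cultured cells (2.30). Meg3, the maternally expressed RNA of the Dlk1 domain, was even on the 3 arrays, at 6.55, 6.52 and 6.59.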

How the data were processed

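RNA of each of 5 samples was amplified, labelled with Cy3 and hybridized by the authors to 1 Agilent 60-mer array, read with Agilent Feature Extraction, version 9.5.1.1 per the labels and another per the file headers. The authors deposited linear spot intensity values from which the local background had been taken, with flags, and a table of normalized intensity, which was an alternative here. Control spots were left out, spots of 1 probe were averaged, and their log2 was quantile normalized across arrays with all non-control probes. A probe with repeated spots counted as well above background where most of its spots were. No lincRNA probe was saturated. Positions are those of the array's design on mm9, and distances run to gene probes. Python 3.11.15, numpy 2.4.6 and pandas 2.3.3 were used, and limma 3.58.1 in R 4.3.3 for normexp (offset 50). The code of the 4-fold rule was run on simulated arrays with known changes, which does not measure the error of calls on these arrays. Named loci were the 5 with the largest smallest difference and the 3 brightest against a dim side in each of 4 groups, the 3 extremes of KYN-2 against HAK-1B TEC each way, the 5 brightest (1 is not reported here), and the 3 brightest seen in Hepa1-6 TEC alone. Other loci were chosen after their values were seen, as were the sex-linked genes, the letters searched and the profile comparison. The members and lists were chosen with earlier results of these data known. The authors left lincRNA probes out of their own comparison and used a rule of ratio and Z-score, an alternative here.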

Additional observations from a re-analysis of the deposited data

How the results depend on the processing

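Of 96 alternative values 48 moved, the others staying within 1.5 times of the value reported. This compares counts and not which probes were called. By the methods' rule HAK-1B and KYN-2 TEC against LSEC had 128 and 120 probes, sharing 68 and 65 with the 144 and 137 reported. Quantile normalization over 4 arrays kept all 144 and 137. Hepa1-6 TEC against LSEC, scaled to the 75th percentile, had 384 probes, sharing 272 with the 541 reported. Every call after normexp correction was also a call before it. Lowering the limit to 2-fold gave 516 lincRNA probes for HAK-1B TEC against LSEC, 571 for KYN-2 TEC, 776 for cultured cells, 371 for KYN-2 against HAK-1B TEC and 1261 for Hepa1-6 TEC, and 102, 210, 118 and 369 for those higher or lower in both xenograft TEC, higher on endothelial arrays and higher in cultured cells. At 8-fold these counts were 42, 37, 161, 9 and 154, and 3, 14, 19 and 63. After normexp they were 66, 64, 180, 25 and 94, and 4, 27, 24 and 64. With dim signals as measured, they were 272, 268, 670 and 94 for the comparisons without Hepa1-6 TEC, and 43, 97 and 153 for the first 3 groups. Where each array had to be well above background, 163 remained for cultured cells against LSEC, 343 for Hepa1-6 TEC, 24 for endothelial arrays and 51 for cultured cells. The methods' rule of ratio and Z-score gave 71 probes for cultured cells against LSEC, 116 for KYN-2 against HAK-1B TEC and 216 for Hepa1-6 TEC. The flag for a positive and significant signal raised detection to 2931 in LSEC, 2396 in cultured cells, and 3185 and 3188 on the arrays of HAK-1B and KYN-2 TEC, and a limit at the 95th percentile of negative controls raised it to 2224 in cultured cells and to 3569 and 3406 on those TEC arrays. The cause of these moves was not tested beyond the settings themselves.

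After scaling to the 75th percentile, the median log2 difference from LSEC was −0.14 in HAK-1B and −0.10 in KYN-2 TEC. It was 0.46 in cultured cells and 0.43 in Hepa1-6 TEC. These medians cover the probes well above background on at least 1 array. None of 91 named differences of 4-fold or more to LSEC changed sign under that scaling, normexp or the deposited table. No paired analysis was possible because no condition had a second array, and a fit with slide as a block was not run for that reason. Differences near background rest on a lower limit that differed between arrays, so a locus can pass on 1 array at a signal that would not count on another.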
